A study of Mus musculus with 7 samples.

Results

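The genes described here are the segments of the T cell receptor beta locus (Trb) in RNA-sequencing of splenic CD4+CD25+ cells from aged and young mice. Members were taken from the deposited series table as the genes with a T cell receptor biotype and a symbol that begins with Trb. This gave 45 of the 25469 genes with a read in at least 1 library. They comprise 27 variable (Trbv), 2 diversity (Trbd), 14 joining (Trbj) and 2 constant (Trbc) genes, of which 5 Trbv and 1 Trbj carry a pseudogene biotype. Another 8 annotated Trbv pseudogenes had 0 reads in every library. Cells came from wild-type (WT) male C57BL/6 mice, 3 aged mice of 18 months and 4 young mice labelled as 8 weeks old, all samples being named biological replicates. The methods of the study give a different age for its young mice, and the labels were followed here. They were isolated with magnetic beads as regulatory T cells (Tregs), a gate that rests on surface CD4 and CD25, and cDNA was made with SMART-Seq v4 without molecular identifiers. Markers of the labelled cells were present in every library: the summed level of Foxp3, Il2ra, Ctla4, Ikzf2 and Il2rb was 2533 to 3370 CPM (gene counts scaled to library size) in aged and 2130 to 3535 CPM in young cells. B cell genes were also present, with summed levels of 859 to 1688 CPM in aged and 1287 to 1989 CPM in young cells. Erythroid genes summed to 12688 to 156886 CPM in aged and 12381 to 116148 CPM in young cells, so the libraries were not T cells alone.

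The beta chain of the T cell receptor is assembled in the thymus, where a D segment is joined to a J segment and a V segment to the DJ product. The joined V-D-J exon is spliced to Trbc1 or Trbc2 to give the mature transcript. The V segment carries most of the antigen-binding domain, and the J segment closes it before the constant region. Each constant gene lies behind its own D segment and J cluster: Trbd1 and Trbj1 precede Trbc1, and Trbd2 and Trbj2 precede Trbc2. Because a T cell expresses mainly a single rearranged beta chain, the share of each segment among its class is commonly used to describe the repertoire of a population. For the short D and J segments the counting rule given below limits this reading, and their shares here describe counted reads. All 45 genes lie on chromosome 6 of GRCm38, from the start of Trbv1 at 40891229 to the end of Trbv31 at 41558452. Trbv31 is annotated on the minus strand, behind Trbc2.

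The 3′ ends of the V segments on which the results turn are shown because they form the start of the region that contacts antigen. Each run holds the last 60 bases of the GENCODE M21 transcript, and the capitals mark the last in-frame TGT or TGC codon, which encodes cysteine. Such a codon was found in the last 60 bases of all 22 segments with a V gene biotype and a coding annotation.
Trbv15: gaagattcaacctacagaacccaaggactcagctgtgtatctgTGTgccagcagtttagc
Trbv14: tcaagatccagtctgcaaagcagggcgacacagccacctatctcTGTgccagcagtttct
Trbv29: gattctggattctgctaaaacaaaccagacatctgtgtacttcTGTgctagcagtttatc
Trbv20: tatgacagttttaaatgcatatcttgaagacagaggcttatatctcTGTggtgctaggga
Trbv12-1: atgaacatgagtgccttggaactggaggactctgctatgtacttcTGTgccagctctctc
Trbv12-2: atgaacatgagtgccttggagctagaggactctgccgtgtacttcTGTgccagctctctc
Trbv31: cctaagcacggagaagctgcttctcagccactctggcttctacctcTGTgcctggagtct

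The printed ends lie in the coding part of the last exon, at chr6:41141599-41141658 for Trbv15, chr6:41135557-41135616 for Trbv14, chr6:41271822-41271881 for Trbv29, chr6:41188918-41188977 for Trbv20, chr6:41114008-41114067 for Trbv12-1 and chr6:41119305-41119364 for Trbv12-2, all on the plus strand, and at chr6:41557693-41557752 on the minus strand for Trbv31. Over whole transcripts, Trbv12-1 and Trbv12-2 were 87.4% identical, and the most alike pair of the 20 tested V segments was Trbv13-2 and Trbv13-3 with 90.6%. The median of the 190 pairs was 53.3%. No 50-base window of Trbv15, Trbv14, Trbv29, Trbv20, Trbv12-1 or Trbv31 occurred in another member, and 4 of 336 windows of Trbv12-2 were shared, with the pseudogene Trbv12-3.

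The J and D segments are shown whole, since they are short. In the J segments the capitals mark the codons TTT or TTC, GGN, NNN and GGN, which encode the phenylalanine-glycine motif of J regions. A search on the printed strand found these codons in 11 of the 14 Trbj segments (78.6%) and not in Trbj1-6, Trbj1-7 or the pseudogene Trbj2-6.
Trbj1-4: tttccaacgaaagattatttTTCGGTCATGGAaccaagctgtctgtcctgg
Trbj1-5: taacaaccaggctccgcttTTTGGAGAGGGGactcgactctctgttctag
Trbj2-7: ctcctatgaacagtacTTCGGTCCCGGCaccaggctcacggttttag
Trbj2-1: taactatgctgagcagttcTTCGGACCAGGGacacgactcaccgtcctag
Trbj2-6: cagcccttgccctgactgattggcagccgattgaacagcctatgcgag
Trbd1: gggacagggggc
Trbd2: gggactgggggggc

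On GRCm38 these segments lie on the plus strand, at chr6:41534811-41534861 (Trbj1-4), chr6:41535084-41535133 (Trbj1-5), chr6:41543810-41543856 (Trbj2-7), chr6:41542754-41542803 (Trbj2-1), chr6:41543598-41543645 (Trbj2-6), chr6:41533201-41533212 (Trbd1) and chr6:41542163-41542176 (Trbd2).

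Gene counts totalled 10734234 to 13649310 per library, and reads on Trb segments made up 0.123% to 0.174% of them. The constant genes took most of these reads, with 10045 to 15843 per library. The V segments had 3097 to 7351 reads, the J segments 330 to 563 and the D segments 44 to 126. The level of a J or D segment therefore rests on few reads. Counts were made with a rule that drops a read touching several genes. A read aligned across segments, such as V and J, D and J, or J and a constant gene, was therefore not counted on any of them. D segments span 12 to 14 bases and J segments 46 to 54, so a read of rearranged RNA has little room to touch them alone. The part of rearranged RNA in the D and J counts was not tested, and the counts do not tell a rearranged segment from an unrearranged one. In these bulk libraries, fewer cells that use a segment and less of its RNA per cell cannot be told apart.

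The first comparison asked which Trb segments differed in level between aged and young cells. V segments tended to be lower and J segments higher in aged cells. Of the 45 members 36 passed the filter on low counts, namely 20 V, 2 D, 12 J and both C genes. By edgeR's quasi-likelihood test with Benjamini-Hochberg adjustment over 13904 genes, 5 V segments fell, 3 J segments rose and the other 28 tested members were not called. Over all genes 16.7% were called, 9.80% as higher and 6.94% as lower in aged cells. Values did not overlap between the ages for 7 V segments, all lower in aged cells, and for 7 J segments, all higher. Over all genes 14.4% were lower and 15.5% higher in every aged library. The median log2 fold change was -0.29 over the 20 V segments, 0.58 over the 12 J segments and 0.02 over all genes tested. Of the V segments 16 lay below 0, and of the J segments 11 lay above 0.

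**Figure D1:**
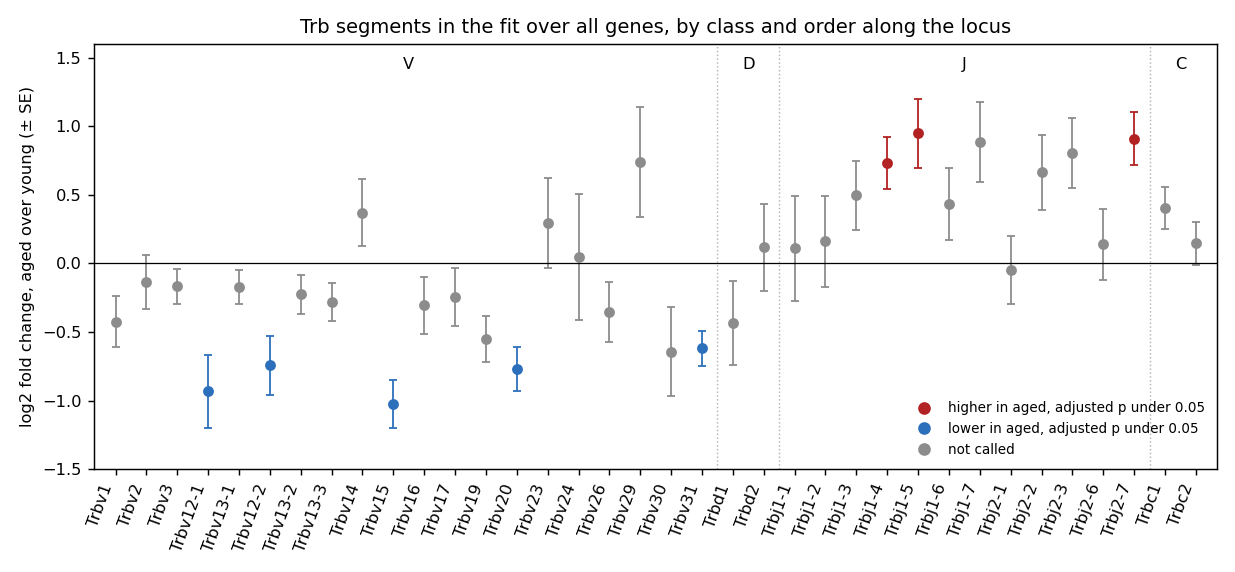
Log2 fold change in level (aged over young, TMM scale) with its SE for the 36 Trb segments that passed the filter, by class (V, D, J, C) and by order along the locus within a class. The 5 called V segments lie between -1.03 and -0.62, and the 3 called J segments between 0.73 and 0.95.

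Trbv15 showed the largest fall among the called segments. Its level was 21.1, 18.3 and 19.6 CPM in aged cells (replicates 1 to 3 in turn, here and below), against 35.2, 53.1, 33.2 and 38.8 CPM in young cells (replicates 1 to 4). Every aged library was below every young one, and the log2 fold change was -1.03 (SE 0.175, adjusted p = 0.0071, edgeR). Trbv20 fell from 15.0 to 20.9 CPM in young to 9.44 to 12.2 CPM in aged libraries (log2 fold change -0.77, SE 0.159, adjusted p = 0.0150, edgeR). Both calls held with each of the 7 libraries left out in turn.

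Trbv31, the inverted segment, had 13.5, 15.1 and 13.7 CPM in aged and 21.6, 24.7, 19.3 and 21.1 CPM in young cells. The ages did not overlap, and the log2 fold change was -0.62 (SE 0.126, adjusted p = 0.0140, edgeR). Without aged replicate 3 the adjusted p was 0.0503. The related segments Trbv12-1 and Trbv12-2 were lower in every aged library than in any young one, with aged replicate 2 lowest in both. Trbv12-1 had 11.0, 5.34 and 10.6 CPM in aged and 17.5, 21.7, 14.9 and 14.6 CPM in young libraries (log2 fold change -0.93, SE 0.265, adjusted p = 0.0452, edgeR). Trbv12-2 had 16.8, 8.96 and 13.9 CPM in aged and 20.9, 26.8, 20.5 and 20.5 CPM in young libraries (log2 fold change -0.74, SE 0.215, adjusted p = 0.0477, edgeR). Their calls held in only 1 of the 7 fits with a library left out, the fit without aged replicate 1. Without aged replicate 2, the log2 fold changes were -0.67 (adjusted p = 0.0653) for Trbv12-1 and -0.53 (adjusted p = 0.0788) for Trbv12-2.

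Trbv13-3 and Trbv19 also did not overlap between the ages and were not called. Trbv19 had 21.8 to 25.0 CPM in aged and 28.5 to 44.7 CPM in young cells (log2 fold change -0.55, adjusted p = 0.0553, edgeR). Among the V segments with the most reads, Trbv3, Trbv13-2 and Trbv16 overlapped between the ages in level, with log2 fold changes of -0.17, -0.22 and -0.30 and adjusted p of 0.396, 0.306 and 0.351 (edgeR). Trbv24, the only V pseudogene that passed the filter, had 1.03 to 2.53 CPM in aged and 0.86 to 2.45 CPM in young cells. The 7 V segments that did not pass the filter, Trbv4, Trbv5, Trbv6, Trbv12-3, Trbv21, Trbv22 and Trbv25, had at most 12 reads in any library.

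The fold changes of V segments can move with the T cell content of a library and with the scale. With the summed reads of Trbc1 and Trbc2 as library size, a scale chosen after the data were seen that moved the median of all genes to a log2 fold change of -0.23, Trbv12-1, Trbv15, Trbv19, Trbv20 and Trbv31 were lower and no J segment was called by edgeR, with 2 at an unadjusted p under 0.05 (8.22% of all genes were called, 3.83% as higher and 4.39% as lower). With the summed reads of Cd3d, Cd3e, Cd3g and Cd247 as library size, 8 V segments were lower and no J segment was called, with 2 at an unadjusted p under 0.05, and the median of all genes moved to -0.25. On that scale 15.3% of all genes were called, 4.58% as higher and 10.7% as lower. Trbv12-1, Trbv15, Trbv20 and Trbv31 were called lower on all 3 scales. On the scale of constant-gene reads, Trbv15 and Trbv20 stayed called whichever library was left out. Trbv12-1 and Trbv31 stayed called there only without aged replicate 1 or without young replicate 2.

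The second comparison asked whether the make-up of the V class differed, with the Trbv total of each library as its library size. Trbv15 fell and Trbv14 rose, and the other 18 tested segments were not called, with 5 of the 20 at an unadjusted p under 0.05. On this scale, which moved the median of all genes up by 0.37 on the log2 scale, 21.9% of all genes were called higher and 1.45% lower in aged cells (23.3% in either direction). In 4 V segments every aged share was above every young one (35.7% of all genes on this scale) and in 4 every aged share was below (2.22% of all genes).

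Trbv15 made up 6.12%, 5.88% and 6.34% of Trbv reads in the aged libraries, against 9.05%, 10.3%, 8.77% and 10.4% in the young ones. The 95% exact binomial interval reached at most 7.23% in any aged and at least 7.98% in any young library. In young cells it was the V segment with the second highest mean share after Trbv3, and in aged cells 7 segments had a higher mean share. The log2 fold change of the share was -0.65 (SE 0.150, adjusted p = 0.0132, edgeR), and the exact two-sided permutation p was 0.0571, the smallest that 3 against 4 libraries can give. The adjusted p was 0.0523 without aged replicate 2 and under the threshold with any other library left out.

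Trbv14 made up 2.72%, 2.20% and 2.58% of Trbv reads in aged and 1.39%, 1.73%, 1.29% and 1.51% in young cells, from 62 to 127 reads per library. All aged shares were above all young shares. The log2 fold change was 0.75 (SE 0.209, adjusted p = 0.0290, edgeR), and it ranged from 0.68 to 0.83 with each library left out. The call held only without aged replicate 2 or without young replicate 2, and the adjusted p was 0.0599 to 0.0916 without aged replicate 1 or 3 or young replicate 1, 3 or 4. In level Trbv14 overlapped between the ages, at 6.85 to 9.35 CPM in aged and 4.90 to 8.90 CPM in young cells.

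Trbv29 set aged replicate 3 apart from the other libraries. It made up 9.71% of Trbv reads there (95% exact binomial interval 8.72% to 10.8%, 320 reads), 2.67% and 3.26% in aged replicates 1 and 2, and 2.26% to 2.50% in young cells. The log2 fold change of its share was 1.14 (SE 0.386, adjusted p = 0.0564, edgeR) and 0.32 (adjusted p = 0.352) without aged replicate 3. It was called higher without aged replicate 1 (1.46, adjusted p = 0.0153), without aged replicate 2 (1.38, adjusted p = 0.0407) and with Trbv3 left out of the class (1.16, adjusted p = 0.0492). In level Trbv29 had 9.17, 10.2 and 29.9 CPM in aged and 8.46 to 12.9 CPM in young cells. The log2 fold change in level was 0.74 with all libraries and -0.02 without aged replicate 3.

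Trbv3 held the highest mean share of all V segments, with 11.7%, 12.5% and 11.1% in aged and 9.81% to 10.9% in young cells. The ages did not overlap, and the log2 fold change of 0.19 was not called (adjusted p = 0.296, edgeR). Trbv13-2, Trbv16 and Trbv19, the other segments among the 5 with the highest mean share besides Trbv15, held 9.64%, 7.87% and 7.84% on average and overlapped between the ages. Per kilobase of annotated exon, Trbv13-2 had the highest mean level of the V class (105 CPM per kb), ahead of Trbv3 (89.0), Trbv15 (84.6) and Trbv16 (73.9). Trbv23 held 0.546% to 0.807% in aged and 0.345% to 0.531% in young cells, without overlap (log2 fold change 0.68, adjusted p = 0.122, edgeR).

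The shares of Trbv12-1, Trbv12-2 and Trbv20 were lower in every aged library than in any young one and were not called. For Trbv12-1 they were 3.20%, 1.71% and 3.43% in aged and 3.89% to 4.49% in young cells (log2 fold change -0.57, adjusted p = 0.108, edgeR). Trbv12-2 held 4.87%, 2.87% and 4.52% in aged and 5.20% to 5.48% in young cells, and Trbv20 held 2.74% to 3.91% against 4.00% to 5.01%. Aged replicate 2 was the lowest of all libraries for both Trbv12 segments. Trbv31 overlapped in share, with 3.94% to 4.84% in aged and 4.79% to 5.65% in young cells.

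**Figure D2:**
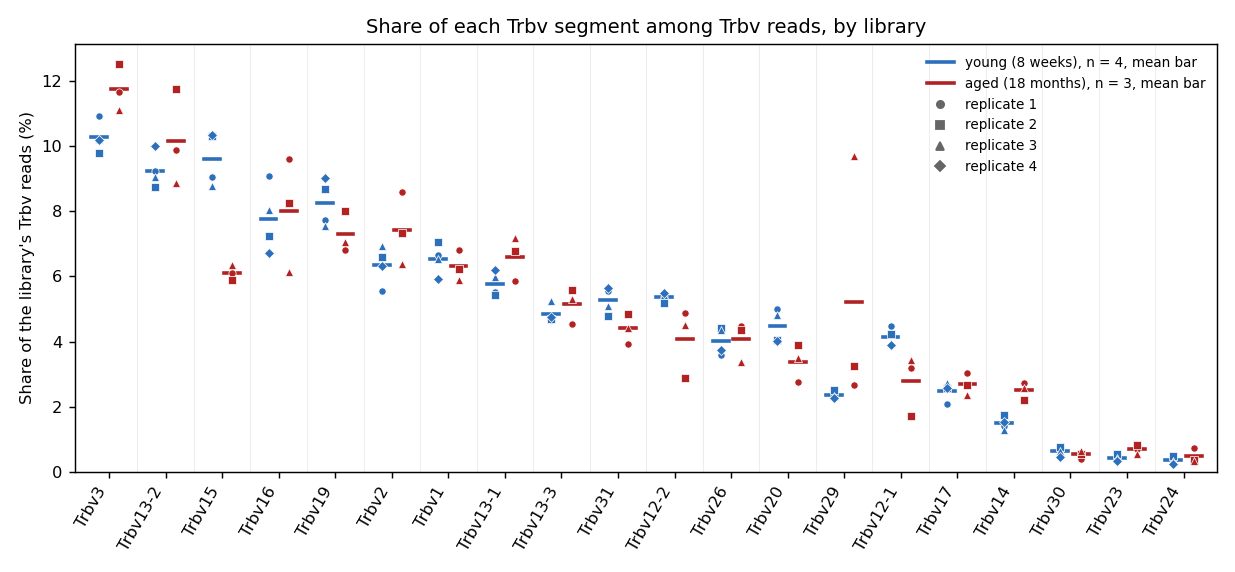
Share of each of the 20 tested Trbv segments among the Trbv reads of a library (percent), ordered by mean share. Points are libraries and bars are group means, with Trbv15 at 5.88% to 6.34% in aged and 8.77% to 10.4% in young cells, and Trbv29 at 9.71% in aged replicate 3.

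Aged libraries differed from each other in V usage more than young libraries did. The distance between a pair of libraries was taken as the percentage points of V share held by different segments. It was 4.08 to 6.12 points over the 6 pairs of young libraries and 8.80 to 11.4 over the 3 pairs of aged libraries. The 12 pairs of an aged and a young library lay at 8.99 to 12.4 points, and at 8.99 to 11.8 without aged replicate 3. Pairs of aged libraries were thus about as far apart as aged from young. Aged replicates 1 and 2 were 8.80 points apart. The aged libraries held fewer Trbv reads (3097 to 3939) than the young (4452 to 7351), and the part of depth in these distances was not tested. The chi-square per degree of freedom, which sets a difference against counting error, was 3.6 to 8.88 for pairs of aged libraries. For pairs of young libraries it was 1.32 to 2.52, and for an aged with a young library 5.09 to 14.1. Pairs share libraries, and the distances are a description without a test.

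**Figure D3:**
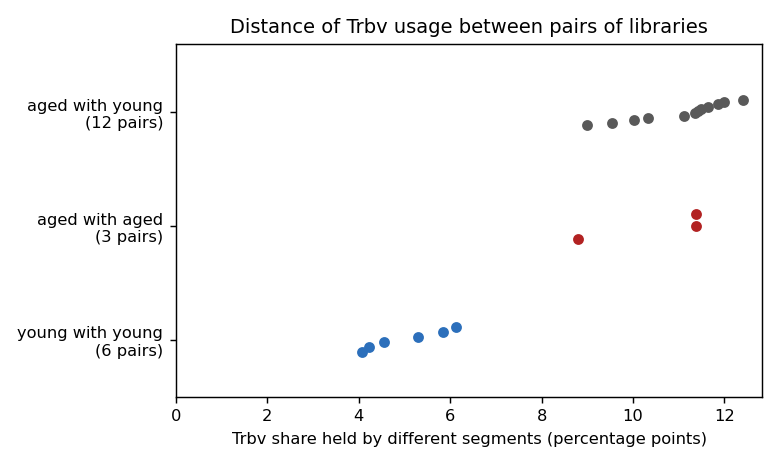
Distance of Trbv usage for each pair of libraries, in percentage points of share held by different segments, with pairs grouped by age. The 6 pairs of young libraries lie at 4.08 to 6.12 points, below the 3 pairs of aged libraries at 8.80 to 11.4.

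The evenness of V usage did not separate the ages. The effective number of V segments, the exponential of the Shannon entropy of their shares, was 16.7, 15.9 and 16.7 in aged and 16.1 to 16.6 in young libraries. The 5 segments with the highest mean share (Trbv3, Trbv13-2, Trbv15, Trbv16 and Trbv19) together held 39.5% to 46.4% in aged and 43.6% to 46.3% in young cells. Between 22 and 26 V segments had a read in an aged library and 24 or 25 in a young one. V pseudogenes held 0.355% to 0.838% of Trbv reads in aged and 0.306% to 0.517% in young cells.

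The D segments were rare and overlapped between the ages. Trbd1 had 2.92 to 3.93 CPM in aged and 3.58 to 7.36 CPM in young cells (log2 fold change -0.43, adjusted p = 0.369, edgeR). Trbd2, which can join only the Trbj2 cluster by deletion, had 1.31 to 1.59 CPM in aged and 0.961 to 1.90 CPM in young cells (log2 fold change 0.12, adjusted p = 0.836, edgeR). Trbd1 held 65.9% to 75.0% of D reads in aged and 67.1% to 83.3% in young cells. By the counting rule these are reads that touched no other gene, so the shares are not a measure of D use in rearranged chains.

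The third comparison asked the same of the J segments. In level, Trbj1-5, Trbj2-7 and Trbj1-4 rose in aged cells, and these were also the 3 J segments with the highest mean share. Trbj1-5 had 7.51, 8.06 and 7.21 CPM in aged and 4.89, 4.76, 3.63 and 2.44 CPM in young cells (log2 fold change 0.95, SE 0.252, adjusted p = 0.0366, edgeR). Trbj2-7 had 5.42, 7.25 and 6.08 CPM in aged and 3.67, 3.29, 3.47 and 2.87 CPM in young cells (log2 fold change 0.91, SE 0.194, adjusted p = 0.0169, edgeR). Trbj1-4 had 5.94, 5.04 and 4.96 CPM in aged and 2.88, 3.08, 3.71 and 3.08 CPM in young cells (log2 fold change 0.73, SE 0.191, adjusted p = 0.0340, edgeR). For all 3, the lowest aged library was above the highest young one.

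The calls differed in how they held. Trbj2-7 kept its call with 6 of the 7 libraries left out in turn, the adjusted p without young replicate 4 being 0.0527. Trbj1-5 kept it only without young replicate 2, with adjusted p of 0.0501 to 0.0933 in the other 6 fits, and Trbj1-4 lost it in all 7 (adjusted p 0.0520 to 0.0874), with log2 fold changes of 0.64 to 0.81. None of the 3 was called on the scale of constant-gene reads or of Cd3 reads, on which their log2 fold changes were 0.51 and 0.48 for Trbj1-4, 0.73 and 0.70 for Trbj1-5, and 0.66 and 0.64 for Trbj2-7. The median of the 12 J segments was 0.38 and 0.35 on these scales, against -0.23 and -0.25 over all genes. Trbj1-3, Trbj1-7, Trbj2-2 and Trbj2-3 were also higher in every aged library and were not called, with log2 fold changes of 0.50, 0.89, 0.66 and 0.81 and adjusted p of 0.207, 0.0726, 0.134 and 0.0610 (edgeR). Trbj2-1 was the J segment with a fold change below 0 (-0.05, adjusted p = 0.914, edgeR), and Trbj1-1, with 0.612 to 1.40 CPM over all libraries, had the lowest mean level of the 12 tested. Trbj2-4 and Trbj2-5 did not pass the filter and had at most 15 reads in a library.

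**Figure D4:**
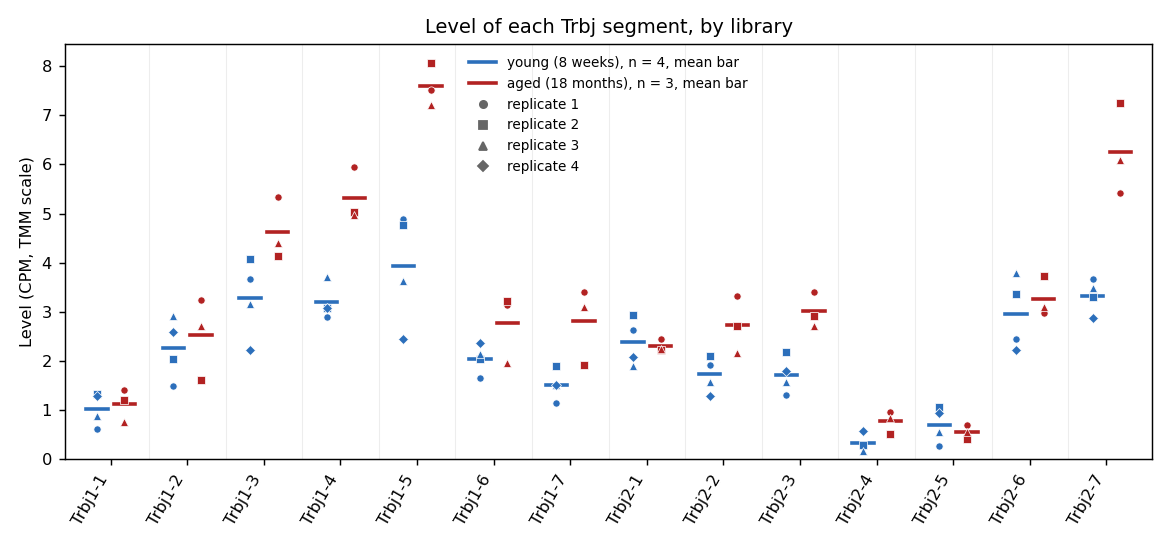
Level of each of the 14 Trbj segments by library, in CPM on the TMM scale, in order along the locus. Points are libraries and bars are group means. The aged libraries lie above all young libraries for Trbj1-3, Trbj1-4, Trbj1-5, Trbj1-7, Trbj2-2, Trbj2-3 and Trbj2-7.

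Within the J class, with the Trbj total as library size, none of the 12 tested segments was called by edgeR, with 1 at an unadjusted p under 0.05, and on that scale 57.2% of all genes were called (3.88% as higher, 53.4% as lower). In level 11 of the 12 fold changes lay above 0 and 3 were called, and in share 6 lay above 0 and 6 below. The segment at an unadjusted p under 0.05 was Trbj2-1, with 4.97%, 4.93% and 5.25% of Trbj reads in aged and 9.09%, 8.55%, 6.12% and 7.63% in young cells (log2 fold change -0.63, SE 0.258, adjusted p = 0.0599, edgeR). Every aged share was below every young one, as for 53.3% of all genes on this scale. The 95% exact binomial intervals of single libraries overlapped, reaching 7.71% in aged and down to 3.96% in young cells.

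Trbj1-5 held the highest mean share, with 15.3%, 17.9% and 16.8% of Trbj reads in aged and 17.0%, 13.8%, 11.7% and 8.95% in young cells. Trbj2-7 held 11.0% to 16.1% in aged and 9.57% to 12.7% in young cells. Both overlapped between the ages. Per kilobase of exon, Trbj1-5 (110 CPM per kb) and Trbj2-7 (97.4) again led the class, and Trbj2-4 was lowest (10.4). The pseudogene Trbj2-6, which lacks the motif in the sequence shown above, held 6.04% to 8.30% of Trbj reads in aged and 8.16% to 12.2% in young cells. It was the fifth of the 14 segments by mean share.

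The Trbj1 cluster held 60.9%, 56.1% and 58.6% of Trbj reads in aged and 55.8% to 57.9% in young cells, with overlap. The effective number of J segments also overlapped, at 11.1 to 12.1 in aged and 11.2 to 13.0 in young cells.

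The constant genes were compared last. Trbc1 had 360, 435 and 497 CPM in aged and 316, 392, 289 and 304 CPM in young cells, and Trbc2 had 535, 698 and 717 CPM against 562, 719, 527 and 541 CPM. Both overlapped between the ages. The log2 fold change was 0.41 (SE 0.152, adjusted p = 0.103, edgeR) for Trbc1 and 0.15 (SE 0.160, adjusted p = 0.572, edgeR) for Trbc2. Trbc1 was called higher without aged replicate 1 (0.52, adjusted p = 0.0436) and without young replicate 2 (0.51, adjusted p = 0.0474).

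The ratio of the constant genes to each other separated the ages. Trbc1 made up 40.2%, 38.4% and 40.9% of constant-gene reads in aged and 36.0%, 35.3%, 35.4% and 36.0% in young cells. The mean was 39.9% ± 1.32 (SD, n = 3) in aged and 35.7% ± 0.382 (SD, n = 4) in young libraries, and the exact two-sided permutation p was 0.0571, the smallest possible. The first exons of Trbc1 and Trbc2 were identical at 374 of 375 aligned bases, and 41.1% of the 50-base windows of Trbc1 and 44.0% of those of Trbc2 occurred in both. The files record no read that aligned to several places, and whether reads of the shared stretches were left out or placed on 1 of the genes is not given in the sources used here, so the split between the constant genes is uncertain.

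Reads of a class were then set against those of another class of the same library. Per 100 constant-gene reads, V segments had 38.5, 27.5 and 25.4 reads in aged and 44.3, 46.4, 46.3 and 44.3 in young libraries. The aged mean was 30.5 ± 7.01 (SD, n = 3) and the young mean 45.3 ± 1.19 (SD, n = 4), with aged replicate 1 nearest to the young range. Per 100 V reads, J segments had 14.3, 14.4 and 13.9 reads in aged and 7.41, 6.68, 8.19 and 7.28 in young libraries. This ratio was 14.2 ± 0.281 (SD, n = 3) in aged and 7.39 ± 0.619 (SD, n = 4) in young cells, and the ages were far apart relative to the spread within either. Per 100 constant-gene reads, J segments had 5.50, 3.97 and 3.52 reads in aged and 3.10 to 3.79 in young libraries, with overlap. These ratios are scores over the members and are given as a description without a test.

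**Figure D5:**
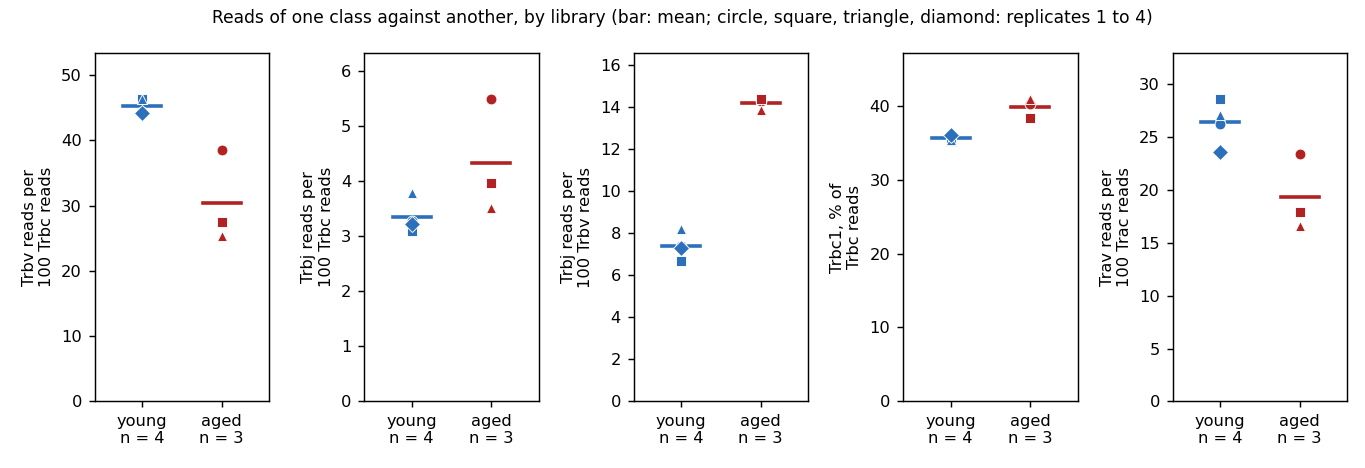
Reads of a gene class per 100 reads of another and the Trbc1 share of constant-gene reads, by library, with bars at the group means and each axis starting at 0. Trbj reads per 100 Trbv reads are 13.9 to 14.4 in aged and 6.68 to 8.19 in young libraries.

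The alpha locus, described through its 152 V and J genes and Trac, showed the same order for its V segments. Per 100 Trac reads, Trav segments had 23.4, 17.9 and 16.6 reads in aged and 26.3, 28.6, 27.1 and 23.5 in young libraries, without overlap. Traj segments had 4.17 to 7.75 reads per 100 Trac reads in aged and 3.05 to 5.84 in young libraries, with overlap. Mitochondrial genes took 5.08% to 10.7% of gene counts in aged and 2.63% to 3.23% in young libraries, without overlap, and reads on no gene made up 9.82% to 14.2% and 8.27% to 10.9%, with overlap. The part of these measures in the class ratios was not tested.

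The lists of related genes gave the setting of the Trb results. Of the 11 genes of the receptor complex and coreceptors, Cd3e, a signalling chain of the receptor, rose (263 to 341 CPM in aged, 212 to 242 CPM in young, log2 fold change 0.46, adjusted p = 0.0301, edgeR), none fell, and the other 10 were not called, against 9.80% higher and 6.94% lower over all genes. The coreceptor Cd4 was lower in every aged library (434 to 446 against 493 to 633 CPM) and not called (log2 fold change -0.30, adjusted p = 0.117, edgeR). Trac, the alpha constant gene, had 526 to 543 CPM in aged and 398 to 521 CPM in young cells (log2 fold change 0.27, adjusted p = 0.168, edgeR). The median log2 fold change of this list was 0.19.

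Of the 15 tested genes of V(D)J recombination, 4 fell and none rose, against 6.94% lower and 9.80% higher over all genes. Rag1, a subunit of the recombinase that cuts the segments, had 0.0874 to 7.35 CPM in aged and 15.4 to 77.0 CPM in young cells (log2 fold change -3.78, SE 1.01, adjusted p = 0.0376, edgeR). Its partner Rag2 had 0 to 0.604 CPM in aged and 0.932 to 4.03 CPM in young cells (adjusted p = 0.0739, edgeR). Dntt, which adds bases at the joints, had 1.78 to 2.53 CPM in aged and 4.37 to 9.18 CPM in young cells (log2 fold change -1.52, adjusted p = 0.0163, edgeR). Prkdc and Xrcc6, which act in the joining of DNA ends, fell by 0.58 and 0.50 on the log2 scale (adjusted p = 0.0367 and 0.0294, edgeR). The median of the list was -0.10, and most of its other members are used in DNA repair by all cells.

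Markers of other cells that can carry or lack a beta chain were set beside these values. Summed genes of gamma delta T cells, whose receptor holds no beta chain, had 20.3 to 25.0 CPM in aged and 35.5 to 49.3 CPM in young cells, without overlap. Tcrg-C1 and Tcrg-C4 of the 5 fell, and Sox13 was higher in every aged library and not called (log2 fold change 0.76, adjusted p = 0.0932, edgeR). Summed CD8 genes (45.4 to 82.0 against 48.8 to 92.7 CPM), natural killer T cell genes (27.4 to 31.2 against 25.9 to 36.2 CPM) and alpha beta T cell genes (2184 to 2323 against 1885 to 2447 CPM) overlapped between the ages. Of the alpha beta T cell genes Cd5, a surface regulator of receptor signalling, fell (log2 fold change -0.42, adjusted p = 0.0422, edgeR) and Cd3e rose, as given above. Within the natural killer T cell list the sum was mostly Cxcr6, at 19.5 to 23.1 CPM in aged and 14.1 to 20.3 CPM in young cells. Klrb1c fell (log2 fold change -0.73, adjusted p = 0.0185, edgeR), Zbtb16 was lower in every aged library and not called (-0.88, adjusted p = 0.0990), and the list median was -0.80. Neutrophil genes had 647 to 5167 CPM in aged and 254 to 909 CPM in young cells, with overlap and a median log2 fold change of 2.19. S100a8 and S100a9 of the 5 rose (2.25 and 2.43, adjusted p = 0.0468 and 0.0278, edgeR). The summed myeloid genes overlapped (239 to 449 against 341 to 408 CPM), and Csf1r and Adgre1, markers of macrophages, fell by 1.12 and 0.70 on the log2 scale (adjusted p = 0.0031 and 0.0127, edgeR). The other 3 myeloid genes were not called, with log2 fold changes of 1.18 for Itgam, 0.22 for Lyz2 and -0.06 for Cd68, which was also the list median. The summed B cell, plasma cell, natural killer, dendritic and erythroid genes overlapped as well. Of the dendritic genes, Zbtb46 rose (0.95, adjusted p = 0.0154, edgeR) and Siglech fell (-1.64, adjusted p = 0.0140, edgeR), and Klrb1c was the called gene of the natural killer list too. The part of these cells in the Trb results was not tested.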

How the data were processed

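RNA-sequencing libraries of CD4+CD25+ splenocytes from 3 aged and 4 young mice were analysed. The authors deposited read counts per Ensembl gene for each library, without normalization. By their naming, they were made with HTSeq-count in union mode without strand, in which a read on several genes is dropped. Reads assigned to no gene or to more than 1, which were 13.1% to 20.9% of all, were left out. The aligner is not given in the sources used here, and the build is mm10 per the submitters' processing notes. The authors also deposited a series table, used here for symbols and biotypes only. Its signal columns are gene counts that the authors divided by a size factor per library, and it also holds the authors' mean signal, log2 fold change and standard error on the log2 scale, test score (statistic), p-value and adjusted p-value, which were not used.

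Members were 45 genes chosen by biotype and symbol. The members, the gene lists and the named segments were chosen with earlier results of these data known. Coordinates and sequences of all 45, matched by gene identifier, come from GENCODE M21 (GRCm38). Levels are CPM on the TMM scale. The ages were compared over 13904 genes by the quasi-likelihood test of edgeR 4.0.16 (R 4.3.3, filterByExpr by group, no covariate), with calls at an adjusted p under 0.05. Standard errors were derived from the fold change and its F statistic. For shares, the fit was repeated on the whole table with the library's Trbv or Trbj total as library size. Intervals are exact binomial at 95% and, in the absence of molecular identifiers, cover counting error only. A count of 3 corresponds to 0.22 to 0.279 CPM on the raw gene totals, before TMM scaling. Exact permutation tests are two-sided over 35 splits, with a smallest p of 0.0571.

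Named segments were the constant and D genes, Trbv31, the 5 Trbv and 3 Trbj segments with the highest mean share, every called segment, the 3 Trbv and 2 Trbj segments with the largest rise and fall in share, and pseudogenes that passed the filter. Others are named where values did not overlap between the ages, where they closed a range or where an alternative called them, and were picked after their values were seen. The fits were tested on simulated counts with known changes. Of 100 genes changed 2-fold, 71 were recovered with TMM and 68 with the Trbv total, and of 100 changed 3-fold, 89 with either. Among unchanged genes 13 and 9 were called, and 0 where no gene was changed. Changes were placed only in genes above a count floor, so recovery of weak J and D segments was not tested. Alternatives were DESeq2 1.42.0, voom of limma 3.58.1, RLE factors, library size only, the summed Cd3d, Cd3e, Cd3g and Cd247 reads as library size, normalization without mitochondrial, immunoglobulin and haemoglobin genes, no filter, at least 10 counts in every library, other class totals, the replicate number as a block and each library left out. The Trbc total as library size was added after the data were seen. Over all genes, no pair of libraries of the same age agreed within sampling noise. In Trbj usage some pairs did, among them aged replicates 1 and 3 and young replicates 1 and 2. Their chi-square values per degree of freedom were 0.566 and 0.948.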

Additional observations from a re-analysis of the deposited data

Results flagged for a closer look

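Young replicate 2 stood apart from the other 3 young libraries in 5 of 53 sets of young values examined, where chance marks about 1 in 20. It was the highest of the young libraries each time, with a gap to its nearest neighbour that took most of the range. Its Trbd1 level was 7.36 CPM, against 3.58 to 3.87 CPM in the others. Trbv12-2 reached 26.8 CPM against 20.5 to 20.9 CPM, and Trbv29 reached 12.9 CPM against 8.46 to 9.18 CPM. The summed Trbv segments reached 515 CPM against 374 to 389 CPM, and all Trb segments together 1668 CPM against 1231 to 1300.5 CPM. These 5 sets overlap, since the Trb total holds Trbd1 and the Trbv total, and the Trbv total holds Trbv12-2 and Trbv29. They are therefore not separate excesses to set against the rate of 1 in 20. In shares of the class young replicate 2 was not apart in Trbv12-2 (5.20%) or Trbv29 (2.50%). Haemoglobin genes took 1.24% of its gene counts, against 5.91% to 10.4% in the other young libraries. Immunoglobulin genes took 2.93%, against 0.618% to 0.905%. The part of young replicate 2 in the levels above was not tested beyond the fits that leave it out. The part of these gene groups in its levels was not tested.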

How the results depend on the processing

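Of the comparisons of a single named V, D or J segment under all alternatives, 470 kept direction and side of the threshold, 54 lost a call, 15 gained one and 24 changed sign. The 470 include segments that were not called and stayed so, and tested segments that were not named are left out. These counts include fits with TMM in place of the class total, which give the change in level and not in share. They leave out the constant genes, of which Trbc1 gained a call in 2 of 16 alternatives and Trbc2 changed sign with the summed Cd3 reads. The cause of these changes was not tested. The number of called Trb segments, 8 in the main comparison, was 5 with library size only, 0 with the replicate block (edgeR, 11 at an unadjusted p under 0.05) and 3 to 7 with each library left out (3 to 6 of the 8, with Trbc1 or Trbj1-7 added in 3 of these fits), and the calls over all genes became 292 with the block and 1237 to 3058 with a library left out. With the Trbc total as library size 5 segments were called, 3 with the block added and 2 to 14 with a library left out, the 14, all V segments, without aged replicate 1. Called V shares numbered 0 with the block (edgeR, 2 at an unadjusted p under 0.05) and 1 to 2 with a library left out, and TMM in place of the class total gives the 5 V segments called in level. Of J shares, 0 were called with the whole class as total (edgeR, 1 at an unadjusted p under 0.05) and 1 (Trbj2-1, adjusted p = 0.0426, edgeR) with the pseudogene left out of the class, and TMM in place of the class total gives the 3 J segments called in level. Replicate numbers did not pair the libraries, since deviations of same-numbered aged and young libraries correlated at -0.12, -0.34 and -0.15, so the block is only a check. The log2 fold change of Trbc1 ran from 0.29 to 0.52 with a library left out.

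With the summed Cd3 reads as library size the sign turned for Trbc2 (-0.12), Trbd2 (-0.14), Trbj1-1 (-0.11), Trbj2-6 (-0.12) and Trbv24 (-0.14). Trbv24 also turned with library size only (-0.0064) and with the block (-0.20). The change in level (TMM) had the opposite sign to the change in share for Trbj1-1 (0.11), Trbj2-6 (0.14), Trbv13-2 (-0.22), Trbv16 (-0.30) and Trbv3 (-0.17), and the share of Trbv16 turned with the block (-0.037). With a library left out, the change in level ranged over 0 for Trbd2 (-0.0032 to 0.32), Trbj1-1 (-0.093 to 0.33), Trbj2-1 (-0.14 to 0.071), Trbv24 (-0.51 to 0.39) and Trbv29 (-0.025 to 1.02), and the change in share for Trbv16 (-0.11 to 0.20) and Trbv24 (-0.057 to 0.62). None of these was called. The tested J and D segments rest on 7 to 105 reads per library each, which limits what they can show.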
